A study of Mus musculus with 24 samples.

Results

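The Cyp3a genes encode cytochrome P450 enzymes of the CYP3A subfamily, and 7 of them were followed here in mouse liver: Cyp3a11, Cyp3a13, Cyp3a16, Cyp3a25, Cyp3a41a, Cyp3a44 and Cyp3a59. They were found as the gene probes of the array, controls left out, that carry one of these 7 gene names in the files. Each gene had 1 probe, so the family is 7 of 56605 probes on the array, and 7 of 7 were among the 32078 probes bright enough to be tested. A Cyp3a57 probe is the only other probe on the array whose gene name starts with Cyp3a, and its values are given as a neighbour of the family.

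CYP3A enzymes sit in the membrane of the endoplasmic reticulum of hepatocytes, where they oxidise steroids, bile acids and many drugs and environmental chemicals. Their transcription is known to be raised by ligands of the nuclear receptors PXR (gene Nr1i2) and CAR (gene Nr1i3). In mice, several members, among them Cyp3a16, Cyp3a41a and Cyp3a44, are also known to be higher in adult female than in adult male liver, through the sex-dependent pattern of growth hormone release, whereas Cyp3a13 and Cyp3a25 are known to vary less with sex.

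RNA from 24 livers of C57BL/6J mice was hybridised to single-colour arrays, with 4 labelled groups of 6 arrays: male control, female control, male pesticide and female pesticide. All mice carry the label of 68 weeks of age. They were bought at 8 weeks and had 2 weeks to acclimatise. A control diet, or the same kind of diet enriched with a pesticide mixture, was given for 52 weeks. These times together fall short of the labelled age, and the rest is not accounted for here. The labels name no single compound and no mouse number, so p-values measure the spread between these liver samples. Values below are log2 signals after quantile normalisation, and a probe was called higher or lower at a limma p under 0.05 after Benjamini-Hochberg adjustment across all 32078 probes tested.

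The sex labels and the sex-linked transcripts did not match. Xist, the RNA that coats the inactive X chromosome of female cells, was well above background on all 12 labelled pesticide arrays and on 0 labelled control arrays, and Eif2s3y, Ddx3y, Kdm5d and Uty, 4 genes of the Y chromosome, showed the reverse. The labelled female control and labelled male pesticide arrays thus go against their sex label. The labelled diet and the sex-linked transcripts cannot be told apart on any array, and every diet or sex direction below is a direction between labels. Hepatocyte markers were bright in all groups (all 12 above background on every array, with array medians of 17.62 to 18.00), and of 7 small intestine markers 1, Fabp2, was bright enough to be tested. Fabp2 was above background on every array, with group means of 15.16 to 15.86. Between labelled diets it was lower, at -0.50 in labelled males and -0.52 in labelled females (limma adjusted p = 0.03293 and 0.0306). Each of the 3 slides held 2 arrays of each group.

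The probes do not separate all members equally, and the sequences that bear on this are shown here because they decide which transcripts each value can stand for. The accessions listed for the Cyp3a11 probe belong to Cyp3a11, Cyp3a41a, Cyp3a41b and Cyp3a44, those of the Cyp3a41a probe to Cyp3a41a and its near copy Cyp3a41b, and those of the Cyp3a25 probe to Cyp3a25 and Cyp3a59. The Cyp3a13, Cyp3a16, Cyp3a44 and Cyp3a59 probes each list their own gene only. All 8 Cyp3a probes list 4 accessions, the most that any probe lists, so the lists may be cut off. The Cyp3a11 probe lies within the transcript from base 1104, spans 2 exons, and is printed whole; of the Cyp3a41a and Cyp3a44 probes the first 30 of 60 bases are printed.
Cyp3a11 probe: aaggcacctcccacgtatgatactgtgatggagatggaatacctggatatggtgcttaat
Cyp3a41a probe: actggttctcatgggaccatctccatccac
Cyp3a44 probe: cactgagctttctcagtgtctgtgcaagtt
The Cyp3a25 and Cyp3a57 probes were the only pair of Cyp3a probes that overlapped. They share a stretch of 52 bases, of which 49 are identical, and capitals mark the 3 differences, G17T, T47C and A49G, counted from the first base shown and written from Cyp3a25 to Cyp3a57. Signal from the transcripts of these genes could therefore reach both probes.
Cyp3a25 probe stretch: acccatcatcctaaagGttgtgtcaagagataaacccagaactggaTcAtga
Cyp3a57 probe stretch: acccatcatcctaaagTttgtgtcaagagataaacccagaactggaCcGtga

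All 7 members were higher under the pesticide label than under the control label in labelled males, and all 7 in labelled females. Cyp3a44 was bright enough to be tested only through the labelled pesticide groups, so it could only be called higher. Of all tested probes, 22.2% passed in labelled males (11.6% higher and 10.7% lower), and 18.3% in labelled females (8.88% higher and 9.44% lower). Scaling to the 75th percentile of the median signal turned the balance over all probes in labelled males from 3713 higher and 3418 lower to 2779 higher and 4512 lower. The median log2 fold change over the members was 2.22 in labelled males and 1.72 in labelled females, beside -0.03 and -0.02 over all tested probes. The sizes were far apart, from an on/off change of Cyp3a44 through changes of 2 to 8-fold in Cyp3a16, Cyp3a11, Cyp3a41a and Cyp3a59 to changes under 1.6-fold in Cyp3a25 and Cyp3a13.

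**Figure D1:**
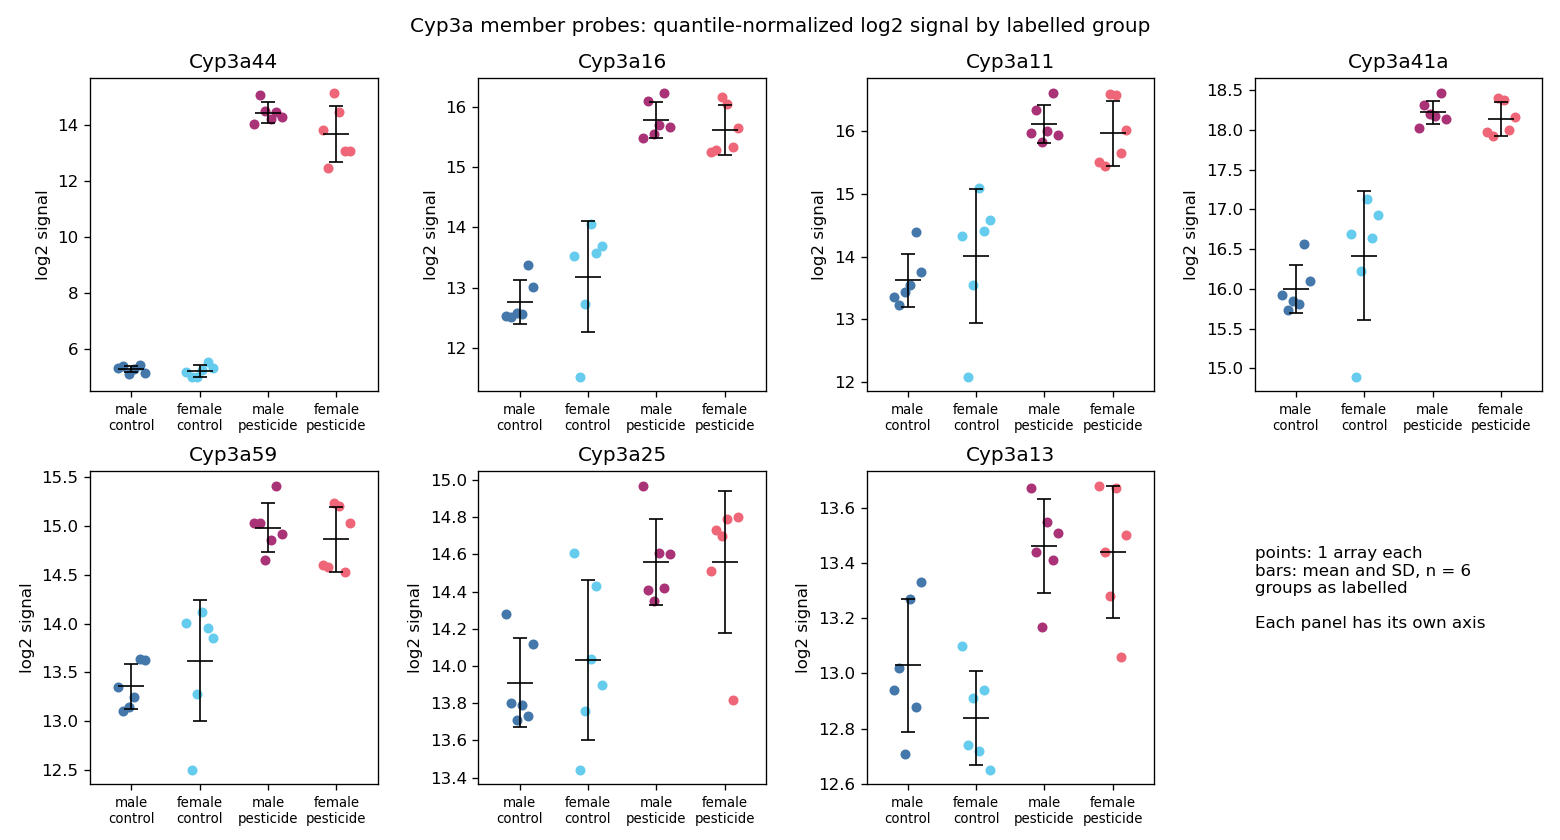
Quantile-normalised log2 signal of the 7 member probes (vertical axis, a separate scale for each gene) in the 4 labelled groups; each point is 1 array and bars give the mean and SD of 6 arrays. Cyp3a44 lies between 4.99 and 5.52 on the labelled control arrays and between 12.48 and 15.17 on the labelled pesticide arrays, whereas the labelled diets overlap for Cyp3a13.

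Cyp3a44 was the only member with an on/off pattern. This gene encodes a CYP3A enzyme known from female mouse liver. In labelled male control its log2 signal was 5.32, 5.39, 5.12, 5.27, 5.41 and 5.15 on the 6 arrays, and in labelled female control 5.16, 4.99, 5.01, 5.23, 5.52 and 5.33. In labelled male pesticide it was 14.03, 15.10, 14.53, 14.24, 14.49 and 14.29, and in labelled female pesticide 13.83, 12.48, 15.17, 14.48, 13.08 and 13.08. The probe was well above background on 0 of 12 labelled control arrays and on 12 of 12 labelled pesticide arrays, and no array of one labelled diet came near the range of the other.

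Because the control level of Cyp3a44 lies in the background, its fold is a lower bound, taken against the dimmest signal that the scanner marked well above background on each array. It was at least 503-fold higher in labelled males, where the measured means differed by 9.17 ± 0.29 (SE; limma, adjusted p = 1.047e-17), and at least 306-fold higher in labelled females, with a difference of 8.48 ± 0.29 (adjusted p = 5.628e-17). The probe passed the filter on dim probes through the labelled pesticide groups alone, so these p-values add no support to the on/off pattern. Both the bound and the difference hold for this signal scale only, since they depend on how the background is treated. The measured difference was 8.34 in labelled males and 7.61 in labelled females with normexp background correction, and 11.98 and 11.16 on the scanner's processed signal, and the normexp values lie below the bounds given above. Within single slides, on the first scale, the difference was 9.12 to 9.21 in labelled males and 7.66 to 9.71 in labelled females.

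The probes of Cyp3a16, Cyp3a11 and Cyp3a41a were well above background in every group, and their signals rose by 3 to 8-fold. Cyp3a16 is an enzyme known from fetal and female mouse liver. Its log2 signal had a lowest, median and highest value of 12.51, 12.56 and 13.38 in labelled male control, and of 11.51, 13.55 and 14.05 in labelled female control. The same values were 15.49, 15.69 and 16.24 in labelled male pesticide, and 15.25, 15.49 and 16.17 in labelled female pesticide. The labelled diets did not overlap, and labelled female control was the most spread of the groups (SD 0.92, n = 6). The rise was 3.03 ± 0.30 (8.18-fold, adjusted p = 6.543e-08) in labelled males and 2.44 ± 0.30 (5.44-fold, adjusted p = 2.521e-06) in labelled females, by limma. The Cyp3a16 probe lists its own gene only, but the list may be cut off. The part of transcripts of other Cyp3a genes in its signal was not tested.

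Cyp3a11 is the main drug-inducible CYP3A enzyme of mouse liver, and its probe also lists accessions of Cyp3a41a, Cyp3a41b and Cyp3a44. Its log2 signal was 13.23, 13.49 and 14.39 (lowest, median and highest) in labelled male control and 12.08, 14.37 and 15.09 in labelled female control. It was 15.82, 15.99 and 16.61 in labelled male pesticide and 15.44, 15.83 and 16.59 in labelled female pesticide. Again no labelled control array reached a labelled pesticide array of the same labelled sex, though the margin in labelled females was narrow. The limma log2 fold change was 2.49 ± 0.34 (5.63-fold, adjusted p = 1.241e-05) in labelled males and 1.96 ± 0.34 (3.88-fold, adjusted p = 0.0003065) in labelled females. The part of transcripts of the other listed genes in this signal was not tested.

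Cyp3a41a, a steroid hydroxylase known from female mouse liver, is read together with Cyp3a41b by its probe. The lowest, median and highest log2 signals were 15.74, 15.89 and 16.56 in labelled male control, and 14.89, 16.66 and 17.13 in labelled female control. Under the pesticide label they were 18.03, 18.19 and 18.47 in labelled males and 17.93, 18.08 and 18.40 in labelled females. The pesticide-labelled arrays were tight (SD 0.15 and 0.21, n = 6 each) and stood apart from all control-labelled arrays. Their signals lie near those of the brightest hepatocyte markers, such as Alb with group means of 18.88 to 18.90. Whether such brightness limits the spread or the rise was not tested. The rise was 2.22 ± 0.24 (4.67-fold, adjusted p = 3.627e-07) and 1.72 ± 0.24 (3.30-fold, adjusted p = 2.06e-05), in labelled males and labelled females, by limma.

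Cyp3a59 belongs, by its start region, with Cyp3a25 and Cyp3a57. Its log2 signal had a lowest, median and highest value of 13.11, 13.30 and 13.64 in labelled male control and 12.50, 13.90 and 14.12 in labelled female control. The values were 14.65, 14.98 and 15.41 in labelled male pesticide and 14.53, 14.82 and 15.23 in labelled female pesticide. The labelled diets did not overlap. By limma it rose by 1.63 ± 0.21 (3.09-fold, adjusted p = 4.991e-06) in labelled males and 1.24 ± 0.21 (2.37-fold, adjusted p = 0.0002016) in labelled females.

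Cyp3a25 and Cyp3a13 changed least. Cyp3a25 is a CYP3A enzyme of liver and intestine that is known from both sexes. Its log2 signal was 13.71, 13.79 and 14.28 (lowest, median and highest) in labelled male control, 13.44, 13.97 and 14.61 in labelled female control, 14.35, 14.51 and 14.97 in labelled male pesticide and 13.82, 14.72 and 14.80 in labelled female pesticide. The labelled diets overlapped in labelled females and were separated in labelled males by less than the SD of either group. The limma change was 0.65 ± 0.18 (1.57-fold, adjusted p = 0.01102) in labelled males and 0.53 ± 0.18 (1.44-fold, adjusted p = 0.04154) in labelled females. The second call rested on the full set of arrays: it was lost when any 1 of 9 arrays was left out, with adjusted p of 0.05233 to 0.1109 by limma. Without labelled female control 2 the difference was 0.41, and within slide 3 alone it was 0.14.

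Cyp3a13, a CYP3A enzyme known from intestine and liver whose gene lies apart from the others, had the smallest change of the members in labelled males. Its log2 signal was 12.71, 12.98 and 13.33 in labelled male control and 12.65, 12.83 and 13.10 in labelled female control (lowest, median and highest). It was 13.17, 13.48 and 13.67 in labelled male pesticide and 13.06, 13.47 and 13.68 in labelled female pesticide, and the labelled diets overlapped in both labelled sexes. The rise of 0.43 ± 0.12 (1.35-fold, limma adjusted p = 0.008976) in labelled males did not pass when arrays were scaled to their 75th percentile in place of quantile normalisation (0.34, adjusted p = 0.05463, on the median signal and 0.31, adjusted p = 0.1053, on the processed signal). In labelled females the rise was 0.59 ± 0.12 (1.51-fold, limma adjusted p = 0.0008678).

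The overlapping neighbour Cyp3a57 had changes close to those of Cyp3a25. Its limma change was 0.70 ± 0.18 (adjusted p = 0.006403) in labelled males and 0.60 ± 0.18 (adjusted p = 0.01997) in labelled females. The labelled diets overlapped in labelled females for this probe too, and that call was lost without labelled female control 2 (adjusted p = 0.05521) or labelled female pesticide 4 (adjusted p = 0.05293) in the limma fit.

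**Figure D2:**
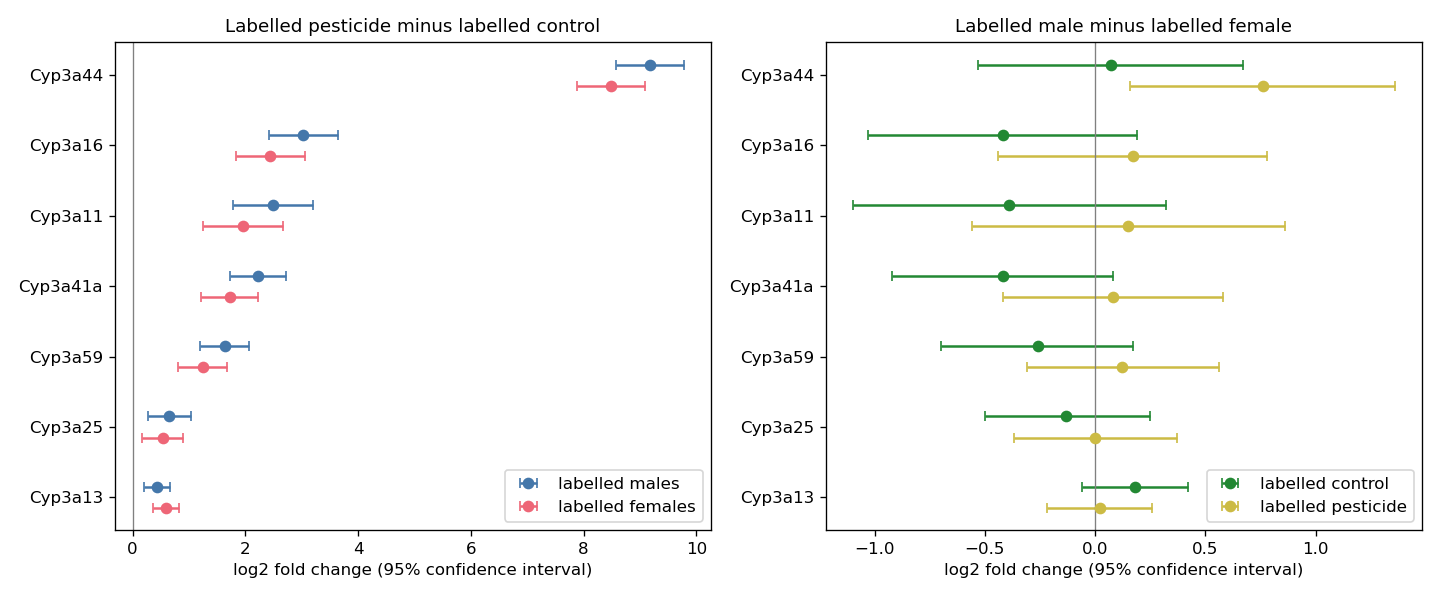
Log2 fold change of each member with its 95% confidence interval: on the left labelled pesticide minus labelled control in labelled males and labelled females, on the right labelled male minus labelled female under each labelled diet (horizontal axes differ). On the left Cyp3a44 stands at 9.17 and 8.48 and the other members between 0.43 and 3.03; on the right all points lie between -0.42 and 0.76.

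The sizes of these changes were compared between members on the same arrays. For each pair of members the difference of their log2 signals on each array was compared between labelled diets with a two-sided exact permutation test (6 against 6 arrays, smallest possible p 0.002165), over 42 tests in all. This test was added after the member values had been seen. The change differed in 20 of 21 pairs in labelled males and in 19 of 21 pairs in labelled females at an adjusted p under 0.05. Each probe enters several pairs, so the pairs are not independent. Pairs of probes outside the family were not compared, so the counts show nothing particular to it. The counts were also 20 and 19 of 21 with a floor for Cyp3a44. For this gene, whose labelled control arrays are at background, the signal on these arrays was raised to the dimmest one marked above background, so its differences are lower bounds on this scale. Cyp3a44 changed by at least 5.94 more than Cyp3a16 in labelled males and by at least 5.81 more in labelled females (exact permutation p = 0.002165 and adjusted p = 0.002841 for each). Cyp3a16 in turn changed by 0.54 more than Cyp3a11 in labelled males and by 0.49 more in labelled females, again with an adjusted exact permutation p of 0.002841.

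Cyp3a59 changed by 0.97 more than Cyp3a25 in labelled males (exact permutation p = 0.002165, adjusted p = 0.002841) and by 0.71 more in labelled females (exact permutation p = 0.008658, adjusted p = 0.0101). The pairs that did not pass were Cyp3a25 against Cyp3a13 in labelled males (0.22, adjusted exact permutation p = 0.1091) and in labelled females, where Cyp3a13 changed by 0.06 more (adjusted exact permutation p = 0.6991), and Cyp3a11 against Cyp3a41a in labelled females (0.23, adjusted exact permutation p = 0.2195). The part of transcripts shared between probes in these differences was not tested, nor was that of the bright signal of Cyp3a41a.

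No member passed the tests between the labelled sexes. The interaction, the change in labelled males minus that in labelled females, ran from -0.16 for Cyp3a13 to 0.69 for Cyp3a44, whose labelled control level is background in both labelled sexes, and 0 of 7 members and 0% of all tested probes passed by limma; at an unadjusted p under 0.05 there were 1265 probes and 0 members. The 95% confidence interval of the interaction was -0.16 to 1.54 for Cyp3a44, -0.28 to 1.46 for Cyp3a16, -0.47 to 1.54 for Cyp3a11, -0.20 to 1.21 for Cyp3a41a and -0.23 to 1.00 for Cyp3a59. For the less variable members it was narrower, -0.40 to 0.65 for Cyp3a25 and -0.50 to 0.18 for Cyp3a13. Differences of more than 1 log2 unit between the labelled sexes were thus within the interval for the first 4 of these genes.

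Between labelled males and labelled females under the control label, 0 of 7 members and 0% of tested probes passed by limma (1792 probes and 0 members at an unadjusted p under 0.05), with member differences of -0.42 to 0.18. Under the pesticide label the count was again 0 of 7, with 0% of tested probes (1311 probes and 1 member at an unadjusted p under 0.05). That member was Cyp3a44, at 0.76 in the direction of labelled male pesticide (95% confidence interval 0.16 to 1.36), which did not pass by limma (adjusted p = 0.9997). Its arrays overlapped between these groups, and labelled female pesticide was the more spread (SD 1.00 against 0.37, n = 6 each).

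Within the groups, the members fell into sets that varied together from array to array. The deviations of each array from its group mean were correlated over the 24 arrays, which share depth and normalisation across probes, so the values are a description. Cyp3a11 and Cyp3a16 had a Pearson r of 0.99, Cyp3a41a had 0.97 with each of them, and Cyp3a59 had 0.95 with Cyp3a11 and Cyp3a16 and 0.90 with Cyp3a41a. Cyp3a25 and Cyp3a57, whose probes overlap, had 0.98. Cyp3a59 also had 0.61 with Cyp3a25. Cyp3a13 had 0.61 with Cyp3a25, 0.23 with Cyp3a59, 0.03 with Cyp3a11 and Cyp3a16, and -0.01 with Cyp3a41a. The Cyp3a11 probe also lists Cyp3a41a, Cyp3a41b and Cyp3a44, and the Cyp3a25 probe also lists Cyp3a59. The part of shared transcripts in the r values of these genes, here and below, was not tested.

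Much of the first set's spread came from labelled female control, where array 2 was the lowest for Cyp3a41a, Cyp3a11, Cyp3a16, Cyp3a59 and Cyp3a25 and array 4 the highest for the first 4 of these. Without that group, over 18 arrays, r stayed at 0.97 for Cyp3a11 with Cyp3a16, 0.93 for Cyp3a11 with Cyp3a41a and 0.90 for Cyp3a11 with Cyp3a59, while Cyp3a25 with Cyp3a41a went from 0.39 to 0.01. Cyp3a59 with Cyp3a25 went from 0.61 to 0.41, and Cyp3a13 with Cyp3a25 stayed at 0.61. Because Cyp3a44 was at background on the labelled control arrays, its r is given over the 12 labelled pesticide arrays. It was 0.75 with Cyp3a11 and Cyp3a16, 0.76 with Cyp3a41a, 0.56 with Cyp3a59, 0.07 with Cyp3a25 and 0.01 with Cyp3a13.

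**Figure D3:**
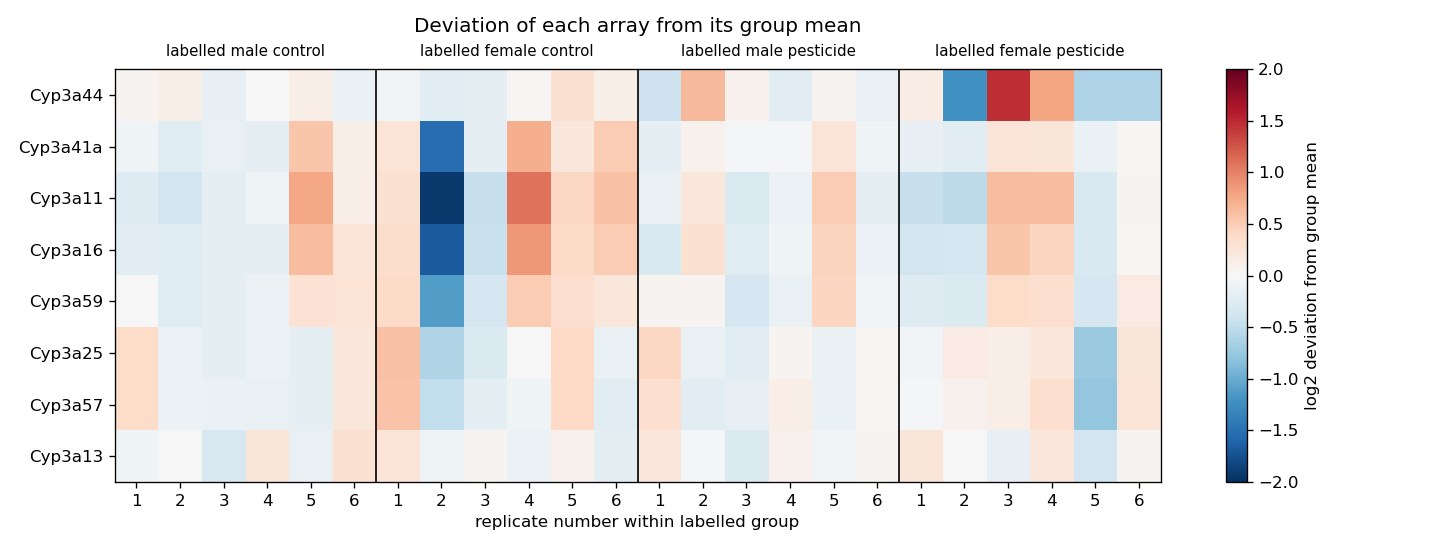
Deviation of each array from its labelled group's mean log2 signal (colour, from -2 to 2) for the 7 members and Cyp3a57, with 6 arrays of each labelled group in columns. Labelled female control 2 is low for Cyp3a41a, Cyp3a11, Cyp3a16 and Cyp3a59, and labelled female pesticide 5 is low for Cyp3a25 and Cyp3a57.

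The genes most like each member were picked by Pearson r of log2 signal over the 24 arrays among 14393 named genes outside the family; these arrays span the labelled diets, so a high r is shared with any gene that separates them. Cyp2a22 came first for Cyp3a16 (0.967), Cyp3a41a (0.953), Cyp3a59 (0.952) and Cyp3a11 (0.946), and Cyp2a4, a steroid hydroxylase known from female mouse liver, was among the first 5 for all 4. For Cyp3a44 the first 4 were the sulfotransferases Sult2a4, Sult2a1, Sult2a6 and Sult2a2 (0.992 to 0.994), followed by a probe named XIST (0.992). On 12 of these 24 arrays the signal of Cyp3a44 is background. For Cyp3a25 the first was Nr1i3 (0.893), the gene of the receptor CAR, and for Cyp3a13 the first were Lbp and Agt (0.917 each).

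By deviations from the group means, which leave out the differences between groups, Nr1i3 was second for Cyp3a25 (0.832) after Pbld2 (0.849), and Agt (0.811) and Lbp (0.782) were first for Cyp3a13. For Cyp3a44, Gbp5 was first and Cga second; over the 12 labelled pesticide arrays, where Cyp3a44 was above background, their r was 0.97 and 0.90. Lclat1 and Cd99 were the first 2 for Cyp3a11, Cyp3a16 and Cyp3a41a, with r of 0.799 to 0.828, and Acad11 (0.859) was first for Cyp3a59.

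By position, 6 of the 7 members and Cyp3a57 form 1 cluster on mouse chromosome 5. Probe positions in build mm9 run from Cyp3a57 (chr5:146151322-146151381) through Cyp3a16 (chr5:146197274-146197333), Cyp3a41a (chr5:146505792-146505851), Cyp3a44 (chr5:146585717-146585776), Cyp3a11 (chr5:146672058-146673925) and Cyp3a25 (chr5:146789175-146789234) to Cyp3a59 (chr5:146920638-146920697), a span of 769 kb. The Cyp3a57 and Cyp3a59 probes lie on the plus strand and the other 5 on the minus strand. The on/off gene Cyp3a44 lies between Cyp3a41a and Cyp3a11, which rose by 4.67-fold and 5.63-fold in labelled males, and Cyp3a25 lies between Cyp3a11 and Cyp3a59, both of which changed more. The Cyp3a13 probe (chr5:138335412-138335471, minus strand) is 7.82 Mb away from the nearest of these.

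The genes around the cluster were counted beside the shares over all tested probes given above (11.6% higher and 10.7% lower in labelled males, 8.88% and 9.44% in labelled females). Of 33 other tested probes within 500 kb of a clustered member, 1 was higher and 7 were lower in labelled males, with log2 fold changes of -0.77 to 1.20. In labelled females 1 was higher and 5 were lower, from -0.75 to 0.78. The higher one in both was LOC102641312, which the file describes as a predicted gene like Cyp3a41 and which lies between Cyp3a16 and Cyp3a41a; it rose by 1.20 ± 0.15 in labelled males (limma adjusted p = 3.298e-06). Bud31, an mRNA splicing factor gene on the flank, fell by 0.34 and 0.24 on its probes in labelled males. Probes of unnamed transcripts that lie between these also fell, by 0.30 and 0.29. In both labelled sexes several of the lower probes thus lie at the same place and do not stand for separate genes. The largest fall was that of B230303O12Rik, at -0.77 in labelled males and -0.75 in labelled females. Around Cyp3a13, 8 of 60 tested probes were higher and 1 was lower in labelled males, and 7 were higher and 3 lower in labelled females. The counts of higher probes there are near the shares over all probes, and no result is read from them. These included Pilra and Pilrb1, immune cell receptor genes, with rises of up to 1.45 in labelled males. Another tested Pilra probe did not pass, at -0.19 in labelled males and -0.18 in labelled females.

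**Figure D4:**
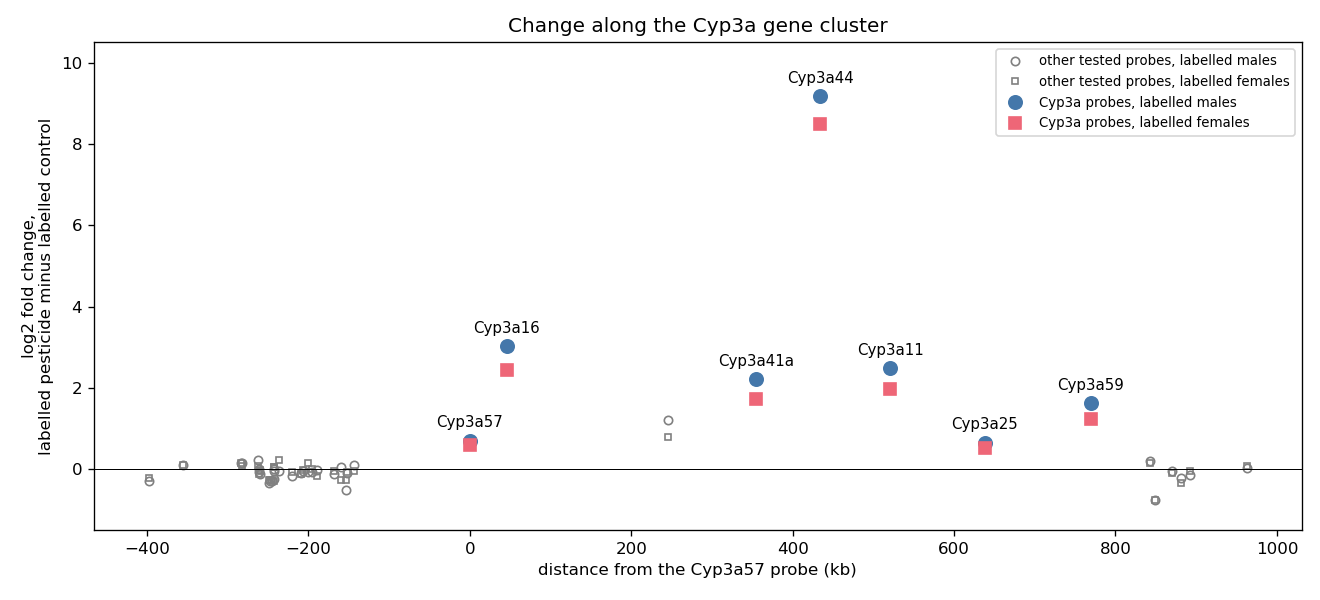
Log2 fold change between labelled diets (vertical axis) against the distance of each probe from the Cyp3a57 probe in kb (horizontal axis), for the clustered Cyp3a probes (filled) and the other tested probes within 500 kb (open), in labelled males and labelled females. Cyp3a44 stands at 9.17 and 8.48, and the open symbols lie between -0.77 and 1.20.

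The regions before the gene starts fell into sets of like sequence, and are shown because some of them are near-identical. Whether these regions bear on the sizes of the changes was not tested. For Cyp3a25 2 starts are listed, and only the first was used. Over the 250 bases before the start (RefSeq, GRCm38.p6), Cyp3a11, Cyp3a16, Cyp3a41a and Cyp3a44 were 71.7% to 94.4% identical to each other, and Cyp3a25 and Cyp3a59 94.8%. Between these sets identity was 49.1% to 53.6%, and Cyp3a13 had 47.5% to 56.2% with the other members. Cyp3a44 was closest to Cyp3a41a (94.4%, 14 differences in 250 aligned bases without a gap) and to Cyp3a16 (92.9%), both of which were well above background on all labelled control arrays.

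The letters CAAAGTCCA, a form of the binding site of the liver factor HNF4, were found in the start regions of 3 of 7 members, Cyp3a11, Cyp3a16 and Cyp3a41a, searching 250 bases before to 50 after the start on both strands. They occurred in 156 of 32851 RefSeq promoters, or 0.475%. In Cyp3a44 the aligned bases differ from those of Cyp3a41a by C7A, counted from the first base of the motif. The last 130 bases before the start follow, with these 9 bases in capitals, all 4 read on the minus strand of GRCm38.p6.
Cyp3a11 (chr5:145879855-145879984): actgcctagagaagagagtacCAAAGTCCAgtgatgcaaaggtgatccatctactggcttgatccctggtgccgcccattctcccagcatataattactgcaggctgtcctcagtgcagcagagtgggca
Cyp3a16 (chr5:145469724-145469853): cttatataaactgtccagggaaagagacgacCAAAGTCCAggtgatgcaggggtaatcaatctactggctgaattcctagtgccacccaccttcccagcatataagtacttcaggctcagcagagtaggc
Cyp3a41a (chr5:145720137-145720266): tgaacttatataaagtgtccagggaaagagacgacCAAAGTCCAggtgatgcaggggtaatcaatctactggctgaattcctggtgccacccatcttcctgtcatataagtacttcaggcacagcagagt
Cyp3a44 (chr5:145805875-145806004): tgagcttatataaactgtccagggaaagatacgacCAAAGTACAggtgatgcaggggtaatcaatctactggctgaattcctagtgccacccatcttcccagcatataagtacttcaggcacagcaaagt
Of the other letters searched the same way, CAAAGGTCA was in Cyp3a25 and Cyp3a59 (0.478% of promoters), AGTTCA in 2 of 7 members (14% of promoters), AGGTCA in 4 of 7 (16.3%), which can overlap CAAAGGTCA, TTGCNNAA in 1 of 7 (10.8%) and TTCNNNGAA, a site form of STAT5, in 0 of 7 (8.3%). A match describes the letters only, and the motifs were chosen with the member values known.

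**Figure D5:**
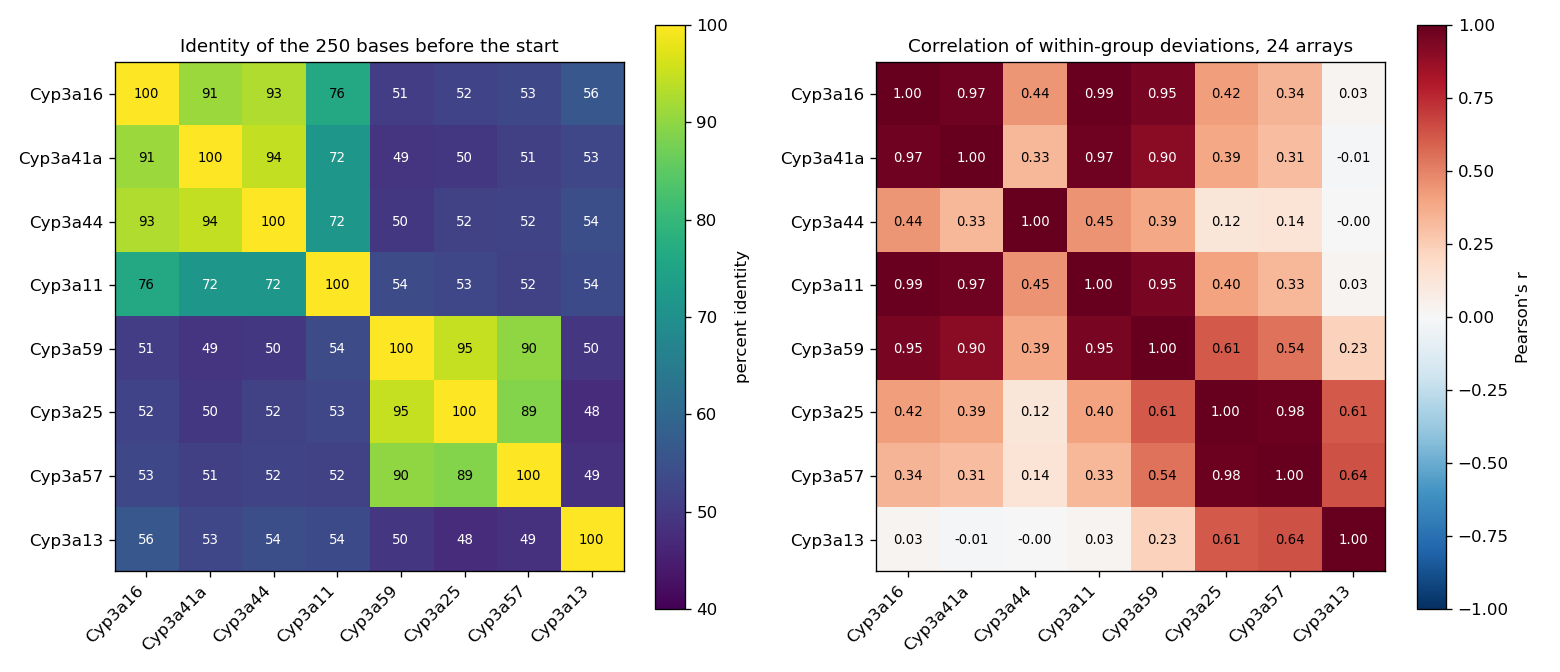
Percent identity of the 250 bases before the start (left) and Pearson r of deviations from the labelled group means over 24 arrays (right) for each pair of the 7 members and Cyp3a57. Cyp3a59 is 94.8% identical to Cyp3a25 and has an r of 0.61 with it and 0.95 with Cyp3a11. Over the 18 arrays outside labelled female control these r values are 0.41 and 0.90. The values of Cyp3a44 on the right include 12 labelled control arrays at background; its r of 0.33 with Cyp3a41a is 0.76 over the 12 labelled pesticide arrays.

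Receptors and liver transcription factors known to act on Cyp3a genes were read beside the 22.2% and 18.3% of all tested probes that passed in labelled males and labelled females. Of 17 tested genes of this list, 2 were higher and 2 lower in each labelled sex, a share near that background, and the median log2 fold change was -0.13 in labelled males and -0.06 in labelled females. Nr1i3, encoding CAR, rose by 0.75 ± 0.13 in labelled males and 0.74 ± 0.13 in labelled females (limma adjusted p = 0.0001611 and 0.0002096). Nr3c1, the glucocorticoid receptor gene, was higher by 0.31 and 0.21. Nr1h4, the gene of the bile acid receptor FXR, fell by 0.42 and 0.38, and Foxa1, a pioneer factor gene, fell by 0.70 and 0.69, in labelled males and labelled females. Nr1i2, encoding PXR, did not pass, at -0.08 ± 0.09 and 0.21 ± 0.09.

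Other known target genes of PXR and CAR are transporters and enzymes of drug and steroid metabolism. Of 16 tested, 8 were higher and 2 lower in labelled males, and 9 were higher and 2 lower in labelled females, with medians of 0.57 and 0.78, beside 22.2% and 18.3% of all tested probes passing in either direction. Cyp2b10, the classic CAR target, rose by 7.63 ± 0.66 in labelled males and 6.20 ± 0.66 in labelled females (limma adjusted p = 6.575e-09 and 2.76e-07). The efflux transporter Abcc4 rose by 2.07 and 2.23, the uptake transporter Slco1a4 by 2.29 and 2.06, and Cyp2c29 by 1.14 and 1.05. The aldehyde dehydrogenase genes Aldh1a1 and Aldh1a7 were the 2 that fell, by 0.64 and 0.70 in labelled males. Several genes of this list are also known to differ between the sexes in mouse liver.

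Genes of electron transfer to P450 enzymes and of haem synthesis and breakdown passed about as often as all tested probes. Of 17 tested genes of this list, 1 was higher and 2 lower in labelled males. In labelled females 0 were higher and 3 lower. The medians were -0.07 in labelled males and -0.13 in labelled females. Hmox1, which breaks down haem, rose by 0.70 ± 0.22 in labelled males and was at 0.47 ± 0.22 in labelled females, where it did not pass. Urod, of haem synthesis, fell by 0.23 in each labelled sex, and Cpox, of the same pathway, fell by 0.28 in labelled males. Por, the reductase that supplies electrons to the CYP3A enzymes, was at 0.03 ± 0.19 and 0.24 ± 0.19, with neither passing.

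Of 15 tested growth hormone and STAT5 regulators of sex-dependent liver genes, 5 were higher and 0 lower in labelled males and 4 were higher and 0 lower in labelled females, with medians of -0.06 and 0.09, beside 11.6% and 8.88% of all tested probes higher. Cux2, a transcription factor gene known for its restriction to female liver, rose by 4.36 ± 0.17 in labelled males and 4.58 ± 0.17 in labelled females (limma adjusted p = 3.748e-16 and 1.5e-16). It was well above background on 2 of 6 labelled male control and 1 of 6 labelled female control arrays, so these sizes depend on the background. Prlr, the prolactin receptor gene, rose by 3.09 and 2.96, and Tox by 1.45 and 1.35. Igfals, of the circulating IGF complex, was higher by 0.47 and 0.42. The labels of diet followed the sex-linked transcripts on every array, so the share of either in the Cyp3a changes cannot be told apart.

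Markers of several other liver cell types moved with the labelled diet as well. In labelled males 11 of 12 Kupffer cell and macrophage markers, 8 of 10 endothelial and 9 of 10 stellate cell and fibroblast markers were higher, and in labelled females 11, 8 and 3. Of 6 tested bile duct markers 1 was higher in labelled males and 0 in labelled females, and of 6 tested B and T cell markers 3 and 0. The Kupffer cell list had array medians of 9.73 to 11.62 in labelled male control, 9.78 to 12.42 in labelled female control, 11.28 to 12.20 in labelled male pesticide and 10.81 to 12.51 in labelled female pesticide. All 12 of its markers were well above background in every group. Of 12 hepatocyte markers 0 were higher and 1 was lower in labelled males, and 2 were higher and 0 lower in labelled females. In bulk liver, more cells of a type and more RNA per cell cannot be told apart, and the part of cell make-up in the Cyp3a values was not tested.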

How the data were processed

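RNA of 24 livers was measured on Agilent SurePrint G3 Mouse GE v2 arrays, 1 array per sample. The deposited scanner files hold spot fluorescence intensity, extracted with Agilent Feature Extraction 10.10.1.1 per the submitters' processing notes. A value table, also deposited, gives log2 values that, per the labels, the authors filtered and quantile normalised; how they filtered is not given in the sources used here. Each of the 24 files correlated best with its own column of that table.

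The median signal was put on the log2 scale without background subtraction. Control spots were left out, spots marked as non-uniform outliers (0 to 9 per array) were set to missing, spots of a probe were averaged, and 56605 probes were quantile normalised. A probe was tested when well above background on at least 4 of 6 arrays of 1 group. Median signals were 63 to 109 per array, 29935 to 39032 probes were above background, and 0 spots were saturated; the number of arrays limits the precision. The model was limma 3.58.1 (R 4.3.3; lmFit, eBayes, two-sided, Benjamini-Hochberg) with 4 group means over 24 arrays, errors are SE or SD, and the code was tested on simulated data. The bound for Cyp3a44 sets each labelled control array at its dimmest probe marked above background, or at Cyp3a44 itself if brighter.

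Probe positions are on mm9, per the file headers. Accessions were named through RefSeq (GRCm38.p6). Named are all members, other Cyp3a probes, probes within 500 kb, up to 4 genes per pathway list with the smallest p in labelled males, and the 5 genes most like each member; Nr1i2, Por, Aldh1a1 and Aldh1a7 were added after their values were seen. A gene is its brightest tested probe. Promoters were aligned in pairs with Biopython 1.88. The members and lists were chosen with earlier results of these data known. Alternatives were other background, scaling, filter and eBayes settings, blocks, single slides, only the groups compared, the deposited table and leaving out each array.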

Additional observations from a re-analysis of the deposited data

Results flagged for a closer look

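In 32 groups of 6 arrays (8 Cyp3a probes in 4 labelled groups), Dixon's test set 1 array apart from the rest of its group, for 2 probes, and chance alone gives about 1 such result in 20 groups. Labelled female pesticide 5 was the lowest array of its group for Cyp3a25, at a log2 signal of 13.82, with a gap to the next array of 0.706 of the group's range. The same array was the lowest for Cyp3a57, at 12.93 with a gap of 0.680 of the range, and these probes overlap by 52 bases. Without this array the difference between labelled diets in labelled females was 0.68 for Cyp3a25 (limma adjusted p = 0.006065) and 0.76 for Cyp3a57 (limma adjusted p = 0.001854), and Cyp3a44 was at 8.60. No member of the Cyp3a11, Cyp3a16, Cyp3a41a and Cyp3a59 set had an array set apart by this test, labelled female control 2 included.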

How the results depend on the processing

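All 7 members kept the direction of their change between labelled diets in each labelled sex under every alternative that gave a value, and all 7 passed under both the slide block and the replicate block. With arrays of 1 slide alone, 2 of each group, 1052, 583 and 459 of all tested probes passed in labelled males on slides 1, 2 and 3, and 1041, 319 and 346 in labelled females. Of the members, 2, 5 and 5 passed in labelled males on slides 1, 2 and 3, and 2, 3 and 3 in labelled females; fewer samples enter these fits. Cyp3a44 and Cyp3a16 passed on each slide in each labelled sex. Between labelled sexes, 2 probes passed under the pesticide label on slide 1 alone, and leaving out 1 array gave 0 to 1 under either diet label; none was a member.

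Cyp3a25 in labelled females did not pass with 75th percentile scaling of the median signal (0.50, adjusted p = 0.06871) or the processed signal (0.47, adjusted p = 0.08483), without a filter on dim probes (0.53, adjusted p = 0.07086) or with only the groups compared (0.53, adjusted p = 0.1047), all by limma. Cyp3a57 in labelled females did not pass with the processed signal (0.52, adjusted p = 0.06032) or only the groups compared (0.60, adjusted p = 0.06657). The cause was not tested. Without labelled female control 2 and labelled female pesticide 5 together, chosen after seeing the data, 7 members passed in each labelled sex. Cyp3a44 has no value where probes must be above background on all arrays.

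Same replicate numbers were not taken as pairs in the main fit. Of 36 same-numbered pairs of arrays, 15 correlated over 0.1 (-0.118 to 0.337), which does not decide whether the numbers mark pairs. The best match had the same number in 26 of 72 cases, where an even spread gives 12. It was on the same slide in 30 of 72, where an even spread gives 24. Both arrays of each of the 36 same-numbered pairs lay on the same slide, so the 26 cases are among these 30. Most best matches on the same slide thus had the same number, although each slide held 2 arrays of each group. The replicate block gave 8099 probes in labelled males and 6751 in labelled females, against 7131 and 5878, and changed no member's call.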
